A study of Homo sapiens with 4 samples.

Results

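The nuclear genes of oxidative phosphorylation described here are 31 subunit genes of respiratory complexes I to V, listed by symbol and found by matching the transcript identifiers of the deposited table to genes. All 31 were present, with 234 transcripts among the 22031 genes of the table, and 11 belonged to complex I, 4 to complex II, 5 to complex III, 6 to complex IV and 5 to complex V. NDUFA4 was counted with complex IV, of which its protein is a subunit despite its name. The cells were U87, an established human glioblastoma line from ATCC, transfected for 48 h with 50 nM of an oligonucleotide by a cationic lipid reagent. Of 4 libraries of polyadenylated RNA, 2 had the tRF-3009a mimic, a synthetic copy of a small RNA cut from the 3' part of a tRNA, and 2 had ssGL2, a single strand of a luciferase siRNA that served as control. All 4 therefore carry a transfected oligonucleotide, no untransfected cells were analysed here, and the line is a single one kept in culture. Libraries are numbered 1 and 2 within a group in the labels, which do not say whether they came from separate cultures or what a number shares. The p-values therefore rest only on spread between these libraries, which may be technical. Between numbers that spread was pooled across genes, so a p-value there does not measure the spread of its own gene.

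Oxidative phosphorylation takes place in the inner mitochondrial membrane. Complex I takes electrons from NADH and complex II from succinate, complex III passes them to cytochrome c, and complex IV passes them on to oxygen. The proton gradient that complexes I, III and IV build drives complex V, the ATP synthase. Most subunits are encoded in the nucleus and imported, while a small core is encoded in mitochondrial DNA, so the nuclear genes set part of the supply of each complex. Glioma cells often draw on glycolysis beside respiration.

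Recovered reads came to 30153387 in control 1 and 28860788 in control 2, and to 33848402 in mimic 1 and 33255642 in mimic 2. The mimic libraries were the deeper ones, and the part of depth in the comparison of groups was not tested, while depth did not separate the numbers. The difference between numbers was similar in control and mimic libraries. Deviations of same-numbered libraries from their group means correlated at 0.745 over the genes tested. Vimentin, a mesenchymal and glioma marker, had values of 276546 and 249907 in the number 1 libraries and of 126391 and 121239 in those numbered 2. GFAP, the defining astrocyte filament gene, had only 12.5 to 29.7, and S100B and AQP4 were not analysed here. SLC1A2 and ALDH1L1 of the same astrocyte and glioma list went the other way, with 54.0 and 68.3 against 127 and 159 and with 2.08 and 4.5 against 34.7 and 33.4, and of the 8 genes tested 4 were lower and 2 higher in number 2. Among markers of other cell types, the summed level of 5 neuron markers was 7942 and 6571 in number 1 and 2644 and 2121 in number 2, mostly TUBB3, with RBFOX3 not analysed here. The 4 oligodendrocyte markers summed to 112 and 98.9 in number 1 and 425 and 437 in number 2, mostly OLIG2, with MOG not analysed here. The 5 epithelial markers summed to 72.8 and 72.9 against 239 and 215, where ESRP1 had 13.5 and 3.6 against 201 and 173 and EPCAM had 45.7 and 41.4 against 16.8 and 11.4, with KRT5 and KRT14 not analysed here. The 5 endothelial markers summed to 464 and 543 against 280 and 228. The 5 immune markers overlapped between numbers, at 10230 and 7936 against 8370 and 7246, nearly all CD68 (-0.21 between numbers and -0.29 for the mimic), with PTPRC at 2.9 to 6.7 and CD3E and AIF1 not analysed here. The part of all these markers in the differences given below was not tested. In bulk RNA, fewer cells of a type and less RNA per cell cannot be told apart.

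Values are normalized read counts per gene, and a log2 difference is taken on log2(value + 1). All 31 genes passed the filter of a mean of at least 10, with means from 645 to 19979 and 455 to 24366 recovered reads in a library. Counting error at the lowest of these was 4.69%, and it covers counting only. Of all gene values the 31 genes held 0.439% (control 1), 0.345% (control 2), 0.440% (mimic 1) and 0.359% (mimic 2). Their share was thus set apart by the library number and not by the treatment.

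Per kilobase of transcript, levels ranged from 661 for NDUFS1 to 11245 for ATP5F1B as means over the 4 libraries. ATP5F1B encodes the catalytic beta subunit of ATP synthase, and NDUFS1 the largest iron-sulfur subunit of complex I. The next highest levels per kilobase were 9743 for COX4I1, a subunit that stabilises cytochrome c oxidase, and 8409 for the small subunit gene COX7C. Summed per kilobase, the members of complex IV had 36666, 33718, 34641 and 34689 in control 1, control 2, mimic 1 and mimic 2, and those of complex V had 32114, 22679, 31647 and 22505. Complex V thus separated the numbers while complex IV did not. Complex I members summed to 22678, 18928, 21385 and 18576, complex III members to 17468, 16354, 17846 and 17166, and complex II members to 7919, 6644, 7600.2 and 6847. Complexes I, II and III thus separated the numbers as well, and complex IV alone overlapped. These sums describe the listed members and not whole complexes.

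**Figure D1:**
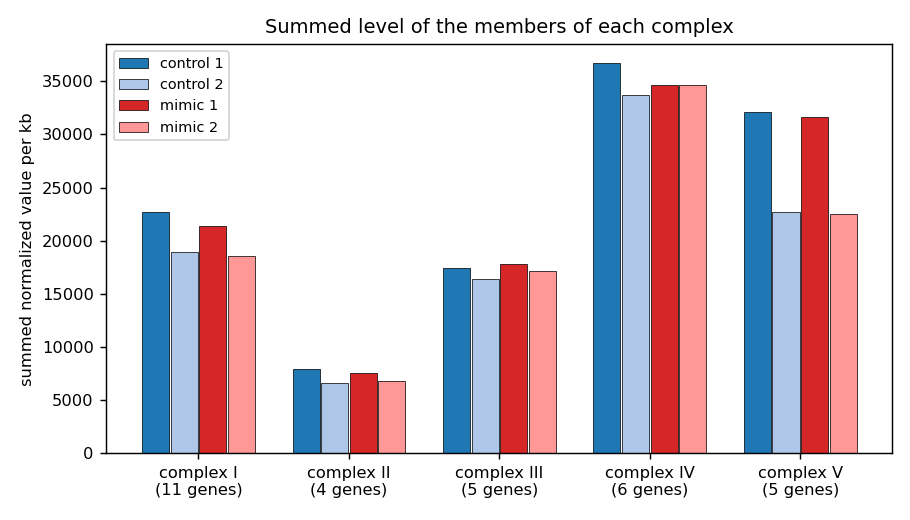
Bars give the summed normalized value per kilobase of transcript of the listed members of each complex in each library, from 0 on a linear axis, without error bars because each bar is 1 library. Complex V falls from 32114 and 31647 in the number 1 libraries to 22679 and 22505 in the number 2 libraries, while complex IV stays between 33718 and 36666.

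Whether introducing the fragment changes transcript levels was asked by setting the mimic against the control. None of the 31 genes passed the test with limma and Benjamini-Hochberg adjustment over the 16535 genes tested, against 0.0% (0 genes) of all genes. At an unadjusted p under 0.05 there were 26 genes in all and 0 members, the smallest member p being 0.235, and edgeR and DESeq2 on recovered reads also called 0. The median log2 fold change of the members was -0.0064, beside -0.014 over all genes tested, with 18 members below 0 and 13 above. Of the 31, 27 lay within 0.1 of 0 on the log2 scale, beside 48.2% of all genes and 69.0% of genes with a mean over 1000. The fit has no term for the library number, so its intervals are wide for genes that differ between numbers: the fold change of ATP5F1A was -0.01 ± 0.56 (SE, n = 2 per group), with a 95% interval from -1.52 to 1.49. A test that misses the threshold here does not show that levels were equal.

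NDUFA6, a supernumerary subunit of complex I of the LYR protein family (chr22:42085525-42090955, minus strand, GRCh38), had the largest difference. It had normalized counts of 1164 and 1105 in controls 1 and 2, and 622 and 1076 in mimic 1 and mimic 2. Only mimic 1 was far below the rest, and mimic 2 lay just under control 2. The log2 fold change was -0.47 ± 0.34 (SE, n = 2 per group), made of -0.90 within number 1 and -0.04 within number 2, and it was -0.08 without mimic 1. NDUFA6-202, its main transcript, showed the same order with 1117, 1087, 595 and 1064. With the library number as a term in the limma fit, 117 genes (0.708%) passed, and NDUFA6 was the single member among them (limma adjusted p = 0.0138). That fit pools the variance across genes, so this p does not take up the gap between -0.90 and -0.04 within the numbers.

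In 5 of the 31 genes (16.1%) both mimic libraries were below both controls, beside 6.21% of all genes tested. These were NDUFA1, NDUFA2, NDUFA6, COX7C and ATP5MC1. A difference between numbers can make the groups overlap, so the 2 shares are not on a like footing. Between numbers 11 of the 31 lay within 0.1 of 0 on the log2 scale, beside 12.3% of all genes. The part of this in the shares was not tested. NDUFA2, a small accessory subunit of complex I, measured 1476 and 1369 in control cells, and 1241 and 1213 with the mimic. Its log2 fold change was -0.21 ± 0.20, or -0.25 and -0.17 within numbers 1 and 2. ATP5MC1, which encodes the c subunit of the proton-driven ring of ATP synthase, measured 1957 and 1622 in control cells and 1568 and 1534 with the mimic, with -0.20 ± 0.22. Here control 1 stood above the other 3 libraries, and within number 2 the difference was -0.08. NDUFA1, a membrane arm subunit needed for assembly of complex I, had 1647 and 1764 against 1587 and 1642, and its fold change on the log2 scale was -0.08 ± 0.20. Control 1 and mimic 2 were almost level. COX7C had 5259.7 and 5183 against 5049 and 5161, with -0.03 ± 0.18, so its gap was also small.

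UQCRC2, a core protein of complex III, was the single gene with both mimic libraries above both controls (3.23% of members beside 6.18% of all genes). It measured 5935 and 5898 in control cells and 6019 and 6296 with the mimic, and its log2 fold change was 0.06 ± 0.18. UQCRB, which encodes the ubiquinone-binding protein of complex III, had 5207, 4665, 5816 and 4868 in control 1, control 2, mimic 1 and mimic 2. Within each number the mimic library was higher, by 0.16 and 0.06, but the groups overlapped.

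Within numbers, with 1 library against 1 and no test, the median of the members was -0.05 in number 1 and 0.01 in number 2. Members ran from -0.90 to 0.16 in number 1 and from -0.17 to 0.12 in number 2. In 10 genes the mimic library was lower within both numbers, in 5 it was higher, and in the rest the sign differed. The shares of all genes for these counts were not determined. Summed by complex, the mimic library differed from its control in number 1 by -4.47% for complex I, -1.99% for complex II, -1.17% for complex III, -4.87% for complex IV and -1.78% for complex V. In number 2 the same differences were -1.14%, 2.87%, 4.97%, 1.95% and -0.511%. No complex other than I and V kept its sign in both numbers.

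**Figure D2:**
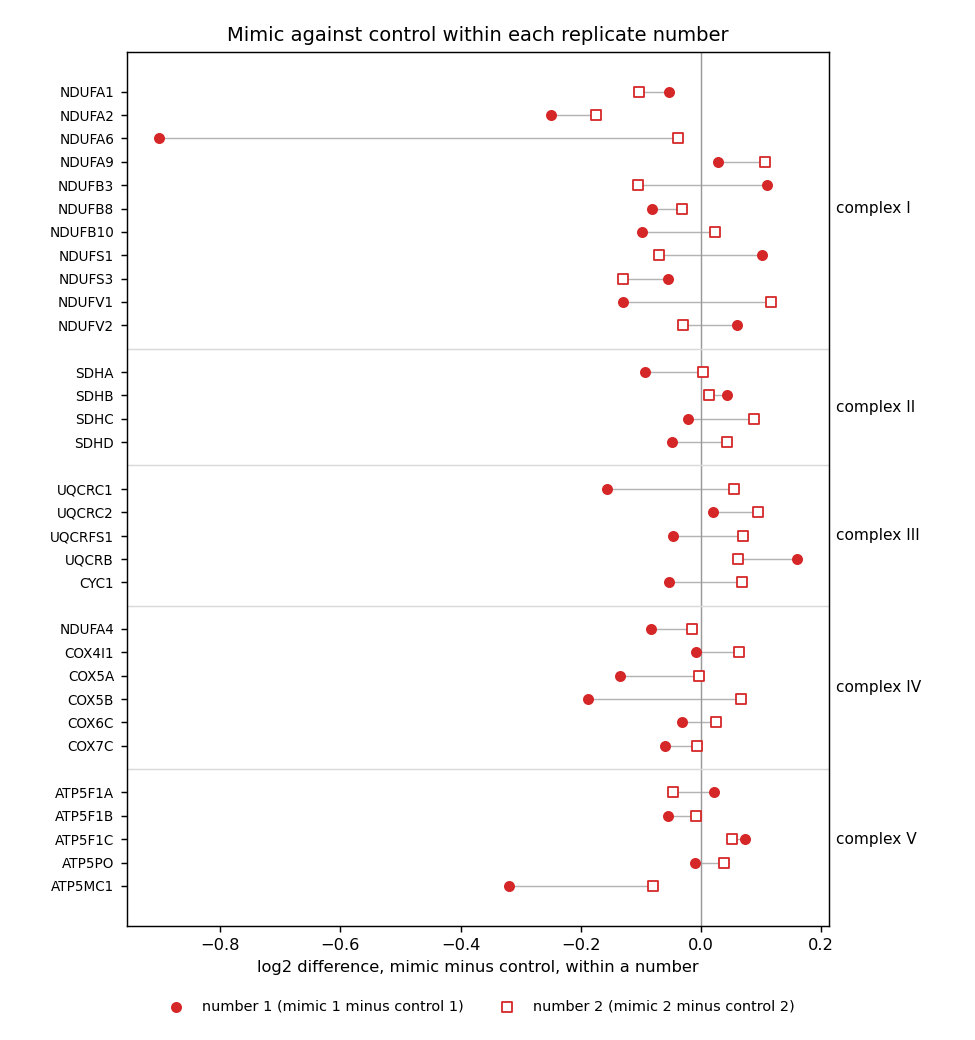
Each gene has 2 points on a log2 axis, the difference of mimic 1 from control 1 (filled circle) and of mimic 2 from control 2 (open square), joined by a line. Most points lie close to 0, and the filled circle of NDUFA6 at -0.90 stands apart from its open square at -0.04.

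Between the numbers, 14 of the 31 genes passed, beside 53.8% of all genes tested. In number 2 (control 2 and mimic 2) against number 1, with treatment as a term, 12 of the 31 genes were lower and 2 were higher by limma with Benjamini-Hochberg adjustment. These shares of 38.7% and 6.45% stand beside 25.9% and 27.9% of all genes tested, and beside 31.4% and 34.9% of the 7552 genes whose means lie in the members' range. The members' lower share was above and their higher share below those backgrounds, and these differences between shares were not tested. In fits without a treatment term, 9 members were called without control 2 and 9 without mimic 2, all lower, where the share of all genes called was 32.8% and 31.2%. The median log2 difference of the members was -0.15, beside 0.01 over all genes and 0.03 over genes at like levels. Of the 31, 11 lay within 0.1 of 0, beside 12.3% of all genes and 15.0% of genes with a mean over 1000. In 19 genes (61.3%) both number 2 libraries lay below both number 1 libraries, beside 37.2% of all genes, and in 3 genes (9.68%) they lay above, beside 38.5%. The sign was the same in controls and mimic libraries for 25 of the 31, with 21 lower and 4 higher in number 2. The share of all genes with the same sign was not determined. Deviations of same-numbered libraries correlated at 0.745 over the genes tested and at 0.903 over the members. A correlation is not a share of signs, so whether the count is particular to the members was not determined. By complex, genes called lower were 6 of 11 in complex I, 1 of 4 in complex II, 1 of 5 in complex III, 1 of 6 in complex IV and 3 of 5 in complex V.

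**Figure D3:**
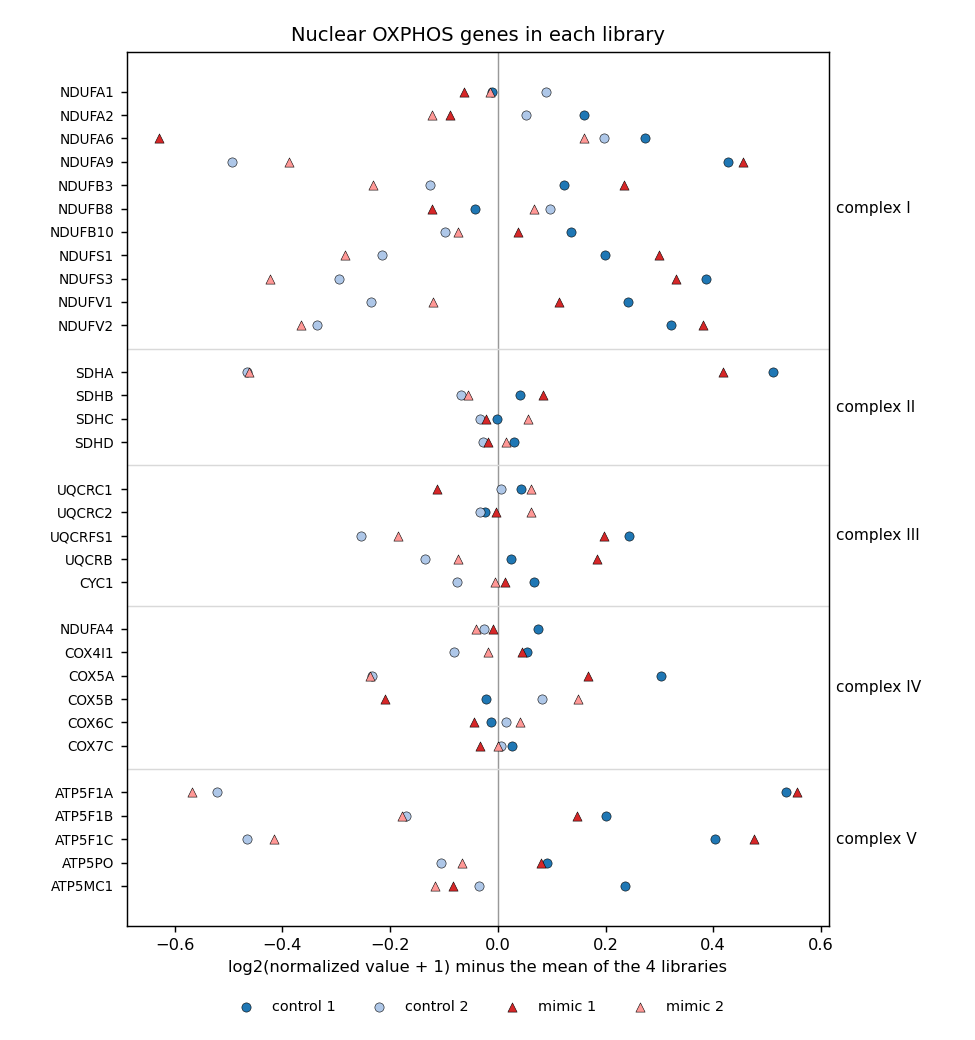
Each gene's log2(normalized value + 1) in the 4 libraries is drawn as the difference from its own mean, with circles for controls, triangles for mimic libraries, dark marks for number 1 and pale marks for number 2. In ATP5F1A, ATP5F1C, SDHA and NDUFA9 the dark marks lie together on the right and the pale marks on the left, while SDHC, SDHD and COX7C have all 4 marks near 0.

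In complex I the lower genes included parts of the NADH-oxidising and electron-carrying arm. NDUFV1, which carries the flavin that accepts electrons from NADH, had 4677 and 4276 in number 1 (control 1 and mimic 1) and 3358 and 3639.7 in number 2, a log2 difference of -0.36 ± 0.10 (SE, limma adjusted p = 0.000627). Its partner NDUFV2, an iron-sulfur subunit, had 2886 and 3007 against 1828 and 1791, a log2 difference of -0.70 ± 0.10 (limma adjusted p = 3.44e-11). In both genes the numbers did not overlap. A pseudogene copy of NDUFV2, counted apart, had a mean equal to 6.30% of that of NDUFV2. NDUFS1 had 2144 and 2301 in number 1 against 1610.4 and 1535, with a log2 difference of -0.50 ± 0.10 (limma adjusted p = 7.51e-06). NDUFS3, a core subunit of the peripheral arm, had 818 and 787 against 510.0 and 466, with -0.72 ± 0.13 (limma adjusted p = 2.42e-07). NDUFS3 was the lowest expressed member before correction for length.

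NDUFA9, an accessory subunit at the junction of the 2 arms of complex I (chr12:4649095-4694317, plus strand), had the largest difference in this complex. It had 2762 and 2818 in number 1 and 1458 and 1570.0 in number 2, a log2 difference of -0.88 ± 0.10 (limma adjusted p = 1.51e-16). NDUFB3, a membrane arm subunit, had 1606 and 1734 against 1351 and 1256, with -0.36 ± 0.11 (limma adjusted p = 0.00262). The call of NDUFB3 was lost in 3 of 15 alternatives, among them those without control 2 and without mimic 2. The same omissions ended the call of NDUFV1, and use of the most abundant transcript alone ended that of NDUFS1.

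Of the other listed complex I genes none was called lower, though both number 2 libraries of NDUFB10 lay below both of number 1. NDUFA6 was called higher in number 2, with a log2 difference of 0.36 ± 0.12 (limma adjusted p = 0.00604), but this rests on mimic 1: in the controls the difference was -0.08 and in the mimic libraries 0.79, and without mimic 1 it was -0.09. The call was also lost with DESeq2, without the treatment term, with the most abundant transcript, without control 2 and without mimic 2. NDUFB8, a membrane arm subunit, had 2655 and 2510.1 in number 1 and 2924 and 2862 in number 2, 0.16 with a 95% interval from -0.03 to 0.36 (limma adjusted p = 0.157). NDUFB10 had 1272 and 1189 against 1082 and 1099.8, -0.17 with an interval from -0.40 to 0.05. NDUFA1 and NDUFA2 had log2 differences of 0.07 and -0.07. Subunits of the same complex thus ranged from NDUFA9 at -0.88 to NDUFA6 at 0.36, where the upper end rests on mimic 1. NDUFB8, at 0.16, was the highest of those listed whose numbers did not overlap.

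Complex II, the succinate dehydrogenase, split between its catalytic subunit and the rest. SDHA, the flavoprotein that oxidises succinate (chr5:218241-256700, plus strand), had 3499 and 3281 in number 1 and 1779 and 1783 in number 2. The log2 difference was -0.93 ± 0.10 (limma adjusted p = 5.1e-19), and it was -0.98 in the controls and -0.88 in the mimic libraries. SDHB, the iron-sulfur subunit that takes electrons from SDHA, had 3064 and 3159 against 2840.2 and 2868, with -0.12 and an interval from -0.32 to 0.07. The membrane anchors SDHC and SDHD, which bind ubiquinone, had 0.02 (-0.17 to 0.22) and -0.01 (-0.22 to 0.20). SDHC had 2848, 2786, 2807 and 2963, and SDHD 1742, 1672, 1684 and 1723, in control 1, control 2, mimic 1 and mimic 2. Per kilobase, the ratio of SDHA to SDHB was 0.609 and 0.542 in number 1 and 0.354 and 0.348 in number 2, while that of SDHD to SDHB was 0.428 to 0.493 in all 4 libraries. Part of the reads of SDHA may be shared with its pseudogene copies. These were counted apart, with a mean equal to 10.8% of that of SDHA, and had 234 to 309 in the libraries.

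In complex III, UQCRFS1 alone passed. This gene encodes the Rieske iron-sulfur protein, which moves between ubiquinol and cytochrome c1, and had 2969 and 2874 in number 1 and 2101 and 2205 in number 2. Its log2 difference was -0.44 ± 0.10 (limma adjusted p = 4.21e-05). Its pseudogene copies, counted apart, had a mean equal to 8.97% of that of UQCRFS1. The core proteins UQCRC1 and UQCRC2 had 0.07 (-0.11 to 0.25) and 0.03 (-0.16 to 0.21). UQCRC1 had 7053 and 6330.2 in number 1 and 6874 and 7144 in number 2, so the numbers overlapped. CYC1, which encodes cytochrome c1, had 4924 and 4745 against 4462 and 4681, a log2 difference of -0.08. UQCRB was at -0.21 (-0.39 to -0.02) with a limma adjusted p of 0.0518. It passed in 6 of 15 alternatives, and its sign turned, to 0.06, when only transcripts annotated as protein-coding were summed.

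In complex IV the genes that passed differed in opposite directions. COX5A had 3139 and 2857 in number 1 and 2163 and 2159 in number 2, a log2 difference of -0.47 ± 0.10 (limma adjusted p = 1.06e-05). COX5B had 3651 and 3204 against 3925 and 4111, 0.23 ± 0.10 (limma adjusted p = 0.0322). Both encode peripheral subunits of cytochrome c oxidase. Per kilobase, the ratio of COX5A to COX5B was 1.03 and 1.03 in number 1 and 0.642 and 0.633 in number 2. The call of COX5B was lost in 7 of 15 alternatives, and its values over all 15 ran from 0.14 to 0.33. COX4I1 had 7308 and 7263 in number 1 against 6654 and 6955, -0.10 with an interval from -0.28 to 0.08. NDUFA4, COX6C and COX7C had -0.07, 0.06 and 0.01, and the interval of COX7C ran from -0.18 to 0.19.

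The F1 head of ATP synthase held the largest difference of the 31. ATP5F1A, which encodes the alpha subunit (chr18:46080248-46104334, minus strand), had 12862 and 13050.4 in number 1 and 6185 and 5992 in number 2. The log2 difference was -1.09 ± 0.09 (limma adjusted p = 1.63e-30), -1.06 in the controls and -1.12 in the mimic libraries. ATP5F1B had 22807 and 21959 against 17620.1 and 17529, a log2 difference of -0.35 ± 0.09 (limma adjusted p = 0.000551). The alpha and beta subunits alternate in the F1 ring in equal number, and the ratio of ATP5F1A to ATP5F1B per kilobase was 0.518 and 0.535 in number 1 and 0.321 and 0.312 in number 2. ATP5F1C, which encodes the gamma subunit of the rotating shaft (chr10:7788129-7807815, plus strand), had 4743 and 4987 against 2595 and 2689, with -0.88 ± 0.10 (limma adjusted p = 1.35e-18). Outside F1, ATP5PO, the stalk protein that confers oligomycin sensitivity, had 4818 and 4785 against 4207 and 4320.3, -0.17 with an interval from -0.36 to 0.01 (limma adjusted p = 0.118). ATP5MC1 was at -0.15 (-0.36 to 0.06). The call of ATP5F1B was lost without control 2 and without mimic 2, while ATP5F1A and ATP5F1C passed in all 15 alternatives.

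**Figure D4:**
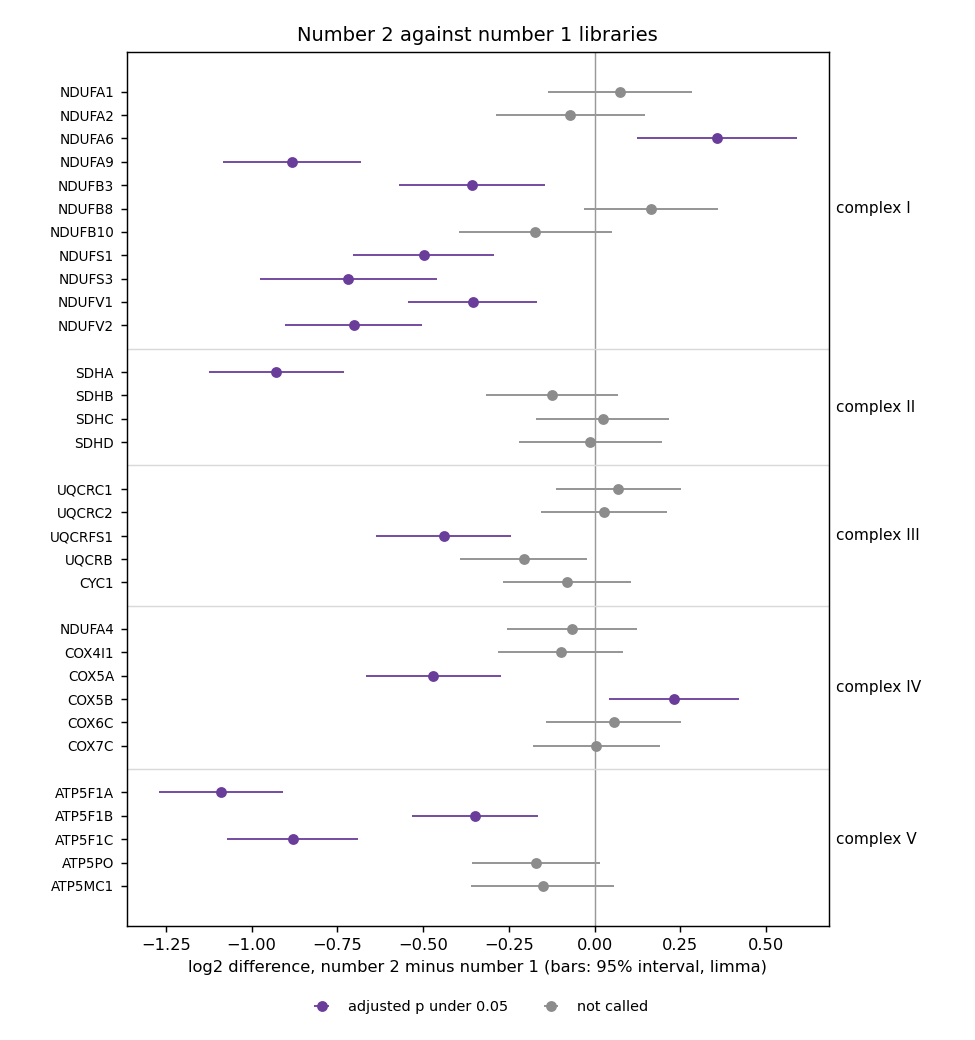
Points give the log2 difference of number 2 from number 1 for each gene, with treatment as a term, and bars its 95% interval from limma, with genes past the threshold in purple. ATP5F1A at -1.09, SDHA at -0.93, NDUFA9 and ATP5F1C at -0.88 lie farthest from 0, and NDUFA6 at 0.36 and COX5B at 0.23 are the 2 called on the other side.

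Overlapping genes can add reads where counting ignores strand. The library kit marks strand, and whether counting used it is not given in the sources used here. ATP5F1A overlaps HAUS1 on the opposite strand, which had 787 and 807 in number 1 and 427 and 418 in number 2, far below ATP5F1A itself. NDUFS1 overlaps EEF1B2, which had 4258 and 4541 in number 1 and 6384 and 6785 in number 2 and so differed in the other direction. NDUFS3 overlaps CELF1, with 3194 and 3402 against 4099 and 4065. It also overlaps KBTBD4, with 529 and 502 against 235 and 231, lower in number 2 like NDUFS3. NDUFA2 overlaps IK, with 4051 and 4339 against 2658 and 2679. On the same strand, where strand does not separate reads, NDUFS3 overlaps PTPMT1, with 314 and 309 against 268 and 282. NDUFA9 likewise overlaps AC005833.1, with 181 and 239 against 113 and 78.3, and AC005832.4, with 109 and 53.2 against 48.2 and 42.8. The part of these overlapping genes in the values of the members was not tested.

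The transcripts of the members were mostly annotated as protein-coding, 91.4% to 92.3% of the summed value in each library. Some genes changed the make-up of their transcripts between numbers. For ATP5F1C, ATP5F1C-201 took 25.8% and 22.1% of the gene in number 1 and 18.6% and 13.9% in number 2. This transcript lacks exon 9 of 10 of ATP5F1C-202, a stretch of 37 bases (chr10:7806974-7807010) that holds the stop codon of ATP5F1C-202, so the 2 transcripts differ at the end of the coding sequence. ATP5F1C-202 had 3373 and 3512 in number 1 against 1866 and 2096, and ATP5F1C-201 had 1222 and 1104 against 482 and 372. Both were lower in number 2, and ATP5F1C-201 more so.

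NDUFB10 did not pass as a gene while its transcripts differed in direction. NDUFB10-201 had 952 and 926 in number 1 and 677 and 746 in number 2, whereas NDUFB10-202 had 224 and 208 against 344 and 289.9. The share of NDUFB10-202 was 17.6% and 17.5% in number 1 and 31.8% and 26.4% in number 2. For SDHA, retained-intron transcripts had 384, 426, 334 and 379 in control 1, control 2, mimic 1 and mimic 2, while its protein-coding transcripts had 3097, 1344, 2935 and 1403. Their share was therefore 11% and 10.2% in number 1 and 23.9% and 21.2% in number 2, with the retained-intron value itself between 334 and 426 in all 4 libraries.

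Transcripts annotated for nonsense-mediated decay, the pathway that degrades messages with early stop codons, took most of UQCRB, at 60.6% and 62.5% in number 1 and 56.8% and 54.6% in number 2. In COX6C they took 42.6%, 47.2%, 52.9% and 49.8% in control 1, control 2, mimic 1 and mimic 2. In UQCRC1 a retained-intron transcript, UQCRC1-208, measured 155 and 129 in control cells and 458 and 218 with the mimic, against 6816, 6679.6, 5821 and 6833 for the main transcript UQCRC1-201. Shares of transcripts are estimates in which reads are divided among overlapping sequences, and they were not tested. The transcripts of these paragraphs were chosen after their values were seen.

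**Figure D5:**
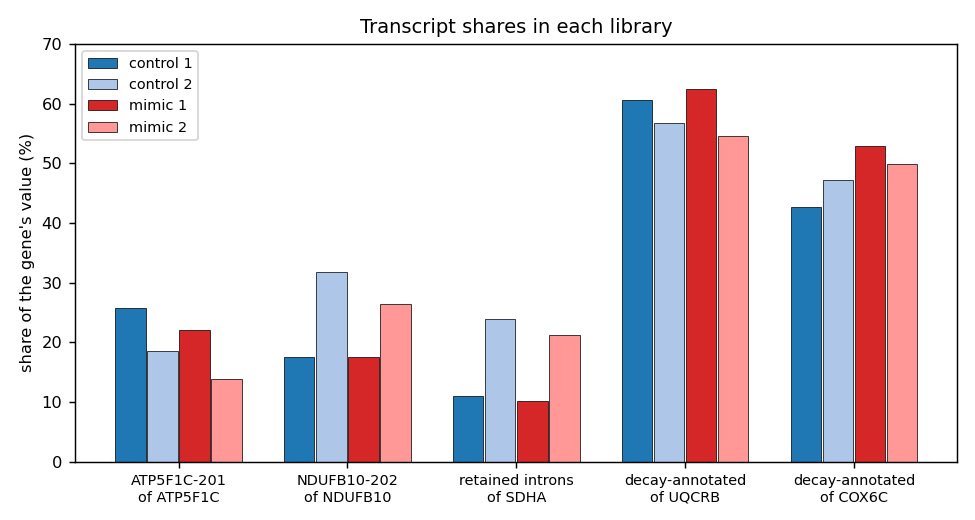
Bars give the share of a gene's value, in percent from 0, held by a named transcript or transcript class in each library, without error bars because each bar is 1 library. All groups but the last separate the numbers, with NDUFB10-202 at 17.6% and 17.5% in number 1 and 31.8% and 26.4% in number 2. The decay-annotated share of COX6C overlaps between numbers and is lowest in control 1 at 42.6%.

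The promoters of the members were read for short sequences that regulators of respiration are known to bind. RefSeq promoters (GRCh38.p14, 250 bases before to 50 after a transcript start) were matched for 25 of the 31 genes by symbol. A gene was counted when any of its promoters held the letters. The 9 letters GCGCANGCG, the core bound by NRF1 (nuclear respiratory factor 1), were found on either strand in 7 of 25 (28.0%), beside 9.02% of 27305 genes. The letters CCGGAAG, bound by ETS factors such as GABP, were found in 8 (32.0%), beside 12.2%, and AAGATGGCG, bound by YY1, in 5 (20.0%), beside 2.14%. None of these 3 sets of letters contains another. The background shares cover all genes of the promoter set, expressed here or not, and the shares over the genes tested were not determined. Of 11 matched genes called lower in number 2, 7 held at least 1 of the 3, and of 14 not called lower 9 did. A match describes letters and is not shown to be a bound site.

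The stretches around the NRF1 letters are printed because they occur both in genes that were lower in number 2 and in genes that were not called. Capitals mark the letters of each match, and a run of 10 capitals holds a match on each strand where the letters read the same from both ends. Each line gives the gene, its number call, the coordinates and the strand on GRCh38.p14, from 5′ to 3′ along the gene. A further match in UQCRC1, 12 bases before its start, lies outside the stretch printed. The stretches of ATP5F1C, UQCRC1, UQCRFS1 and ATP5PO, and the end of that of SDHD, lie inside first exons of longer GENCODE transcripts.
ATP5F1C, lower, chr10:7788145-7788174, plus: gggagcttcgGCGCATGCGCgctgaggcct
NDUFA9, lower, chr12:4649024-4649053, plus: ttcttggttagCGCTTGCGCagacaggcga
UQCRFS1, lower, chr19:29213163-29213192, minus: gcgcctcctcgCGCCTGCGCcgtggttgga
SDHD, not called, chr11:112086753-112086782, plus: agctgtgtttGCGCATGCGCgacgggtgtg
UQCRC1, not called, chr3:48609674-48609703, minus: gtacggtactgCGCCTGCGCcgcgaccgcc
ATP5PO, not called, chr21:33915809-33915838, minus: acgccaacgcgCGCGTGCGCccttgcgcgt
SDHA, lower, chr5:218140-218240, plus: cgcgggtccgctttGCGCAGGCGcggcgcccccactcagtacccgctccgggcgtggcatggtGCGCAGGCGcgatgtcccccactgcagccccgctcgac

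ATP5F1C, with a log2 difference of -0.88 between numbers, and SDHD, with -0.01, held the same 10 letters. The SDHA promoter held the 9 letters 4 times on the gene's strand, each 49 bases from the next, and the first 2 of these are in the stretch printed. Aligned from match to match, 28, 37 and 22 of the 49 bases were identical. Each count includes the 9 letters of the match itself, which are identical by the choice of start. Whether these stretches form a tandem repeat was not tested. ATP5F1A, the gene with the largest difference, had no match to the NRF1 letters in this window and had the ETS letters.

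The other subunits of the complexes were taken from lists made for this comparison. Of 47 further nuclear subunits, 0 were called for the mimic, and between numbers 13 (27.7%) were lower and 10 (21.3%) higher in number 2, beside 25.9% and 27.9% of all genes, with a median log2 difference of -0.04. Of all 78 subunits, 25 were lower and 12 higher. Of 26 further subunits of complex I, 7 were lower and 7 higher. NDUFB6 had 2170.1 and 2229 in number 1 and 1264 and 1369 in number 2 (-0.74), NDUFC2 was at -0.60, and NDUFA3, at 49.0 to 103 the lowest of them named here, at 0.66. Of 4 in complex III, UQCR10 was lower (-0.58) and UQCR11 higher (0.37), and UQCRH and UQCRQ, both at -0.04, were not called. Of 5 in complex IV, COX6B1 was lower (-0.25), COX8A higher (0.25) and COX6A1 at 0.20 not called. Of 12 in complex V, 4 were lower and 1 higher. ATP5MC3, which like ATP5MC1 encodes the c subunit, had 6663 and 5902 against 3652 and 3482 (-0.81). ATP5MC2, another gene for the same protein subunit, had 4743 and 3545 against 5376 and 5215 (0.37). The 3 genes for the c subunit thus stood at -0.15, 0.37 and -0.81 between numbers. ATP5PB was at -0.29 and ATP5MF at -0.26.

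For the mimic, the further subunits with the smallest p-values were COX8A (-0.32), ATP5F1D (-0.29), NDUFB11 (-0.23), NDUFA3 (0.40), ATP5MC2 (-0.23) and NDUFS8 (-0.21), none of them called. COX8A had 4601, 4622, 3105 and 4385 in control 1, control 2, mimic 1 and mimic 2. ATP5F1D, the delta subunit gene of F1, had 2711, 2509, 1868 and 2436, and NDUFS8, an iron-sulfur subunit gene of complex I, had 3407, 3699.8, 2543 and 3687. As in NDUFA6, mimic 1 was the low library in each of these 3 genes, and mimic 2 was close to control 2.

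Subunit variants, assembly factors and regulators are set here beside the 25.9% of all genes that were lower and the 27.9% that were higher in number 2. NDUFA4L2, a paralog of NDUFA4 known as a target of hypoxia signalling, had 11.4 and 4.5 in number 1 and 105 and 100.1 in number 2, a log2 difference of 3.65 (limma adjusted p = 7.72e-17). NDUFA4 itself was at -0.07. COX7A2L, a factor of respiratory supercomplexes, was higher at 0.60, and ATP5IF1, the inhibitor of ATP synthase, lower at -0.33. The other 5 of the 8 listed variants were not analysed here. Of 50 assembly factors, 13 were lower and 8 higher in number 2, with COX19 at 0.89, UQCC3 at -0.88 and NUBPL at -0.78 farthest from 0. For the mimic the smallest p-values among them were those of SCO2 (-0.37), SDHAF2 (-0.26) and TTC19 (0.18), and 0 were called.

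Of 12 regulators of mitochondrial biogenesis, 6 were lower and 1 higher in number 2, where 53.8% of all genes were called in either direction. PPARGC1B, a coactivator of respiratory genes, had 533 and 584 in number 1 and 223 and 226 in number 2 (-1.31, limma adjusted p = 4.37e-16). NRF1 had 679 and 658 against 477 and 483 (-0.48, limma adjusted p = 0.00116), and ESRRA, a nuclear receptor that works with these coactivators, was higher at 0.57. PPARGC1A was at 0.08 and not called. Of 12 citric acid cycle enzymes, which supply NADH and succinate to complexes I and II, 6 were lower and 1 higher, with CS (citrate synthase) at -0.73, IDH3G at -0.72 and SUCLA2 at -0.55. No gene of either list was called for the mimic, where PPRC1 (-0.22), POLRMT (-0.19), SUCLG2 (0.23), OGDH (-0.16) and MDH2 (-0.11) had the smallest p-values.

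The 13 subunits encoded in mitochondrial DNA were compared in the same fits. In number 2, 4 were lower and 0 higher, beside 25.9% and 27.9% of all genes, with a median of -0.11, and MT-ND2 (-0.48), MT-CO2 (-0.40), MT-ND5 (-0.28) and MT-ND1 (-0.25) were those called. For the mimic 0 were called and the median log2 fold change was -0.14, with MT-ND4L (-0.25), MT-CYB (-0.21) and MT-ND4 (-0.21) at the smallest p-values. MT-CYB had 78724 and 67982 in control cells and 61500.3 and 65006 with the mimic. MT-CO1, the catalytic core of complex IV, had 342991 and 293243 in number 1 and 325937 and 312605 in number 2, a log2 difference of 0.01, beside COX5A at -0.47 and COX5B at 0.23. MT-ATP6, a subunit of the proton channel of complex V, was at -0.21 and not called (limma adjusted p = 0.0649).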

How the data were processed

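Poly(A) RNA-seq of U87 cells comprised 2 ssGL2 libraries and 2 tRF-3009a mimic libraries, with numbers 1 and 2 per group. Per the submitters' processing notes, hg38, kallisto and DESeq2 were used, and versions and the annotation release are not given in the sources used here. The deposited signal per Ensembl transcript holds, to judge from its values, estimated reads that the authors scaled with 1 size factor per library. In each library 95.6% to 99.7% of low values lay within 0.1 of a whole multiple of the library's step, and division by it returned whole reads for edgeR and DESeq2, which called 0 members for the mimic. Transcript rows summed to at least 10 recovered reads, so rarer transcripts were not analysed here.

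Of 100809 transcripts, 90643 (89.9%) matched GENCODE v29 (GRCh38) without version, and values were summed over 22031 genes. Unmatched transcripts held 3.25% to 3.56% of each library and were left out. Transcript types, coordinates and overlaps came from that annotation, and levels per kilobase are sums of each transcript's value divided by its length. Genes were tested by limma, with its trend option, on log2(value + 1), over the 16535 at or above a mean of 10, two-sided, adjusted after Benjamini-Hochberg over all of them at 0.05. Its fold changes understate those of low genes. The mimic was compared without a term for the number, and number 2 with number 1 with treatment as a term. In the second fit, and in that of the mimic with a replicate block, the variance was pooled across genes. An adjusted p there rests on the spread of all genes. The fits were also run on simulated data in which every gene had the same setting for spread beyond counting. Such data cannot show how a pooled variance treats a gene whose own spread differs.

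The 31 genes, the further lists and the markers were chosen with earlier results of these data known. The genes named are all 31, and of each further list the 3 with the smallest p for the mimic and the 3 with the largest difference between numbers, with a mean of at least 10, plus MT-ND1, MT-CO1 and MT-ATP6, which were chosen after their values were seen. Alternatives were pseudocounts of 0.5 and 10, no filter, a mean of at least 50, TMM factors, equal sums, edgeR and DESeq2, protein-coding transcripts only, the most abundant transcript, a replicate block, and each library left out. Fits ran in R 4.3.3 (DESeq2 1.42.0, edgeR 4.0.16, limma 3.58.1), and tables and plots in Python 3.11.15 (matplotlib 3.10.9, pandas 2.3.3, numpy 2.4.6).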

Additional observations from a re-analysis of the deposited data

How the results depend on the processing

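No member was called for the mimic in 14 of the 15 alternatives. A replicate block called 1, NDUFA6. The deviations of same-numbered libraries from their group means correlated at 0.745 over all genes and 0.903 over the members. With 2 pairs this does not show that the numbers pair the libraries, and the cause was not tested.

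The median fold change of the members for the mimic ran from -0.12 to 0.084 with 1 library left out, where the groups no longer hold the same numbers. The median between numbers was -0.20 with equal sums. The members called between numbers were 9 to 15 with 1 library left out, 9 without control 2 or mimic 2, while 31.2% to 48.0% of all genes were called in these fits. These fits had no term for treatment, because 3 libraries with it leave no residual spread, so the planned omissions with that term were not run.

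The following fold changes for the mimic turned sign, and the cause was not tested. With equal sums, ATP5F1A was at 0.025, ATP5F1B at 0.0067, COX6C at 0.035, COX7C at 0.0052, NDUFB10 at 0.00086, NDUFV1 at 0.031 and SDHD at 0.035. With edgeR, ATP5F1A was at 0.0034, COX6C at 0.0023 and SDHD at 0.0017. With DESeq2, ATP5F1A was at 0.0045, COX6C at 0.0022 and SDHD at 0.0016. With the most abundant transcript, COX5A was at 0.086, COX6C at 0.19, NDUFB10 at 0.050, NDUFB3 at -0.0055, NDUFV1 at 0.037 and SDHD at 0.028. With TMM factors, NDUFB3 was at -0.00080. With 1 library left out the fold changes that turned sign ran, lowest to highest, as ATP5F1A -0.57 to 0.55, ATP5F1B -0.22 to 0.16, ATP5F1C -0.38 to 0.51, ATP5PO -0.084 to 0.11, COX4I1 -0.040 to 0.095, COX5A -0.34 to 0.20, COX5B -0.24 to 0.12, COX6C -0.045 to 0.039, CYC1 -0.063 to 0.079, NDUFA4 -0.10 to 0.00092, NDUFA9 -0.39 to 0.53, NDUFB10 -0.15 to 0.080, NDUFB3 -0.23 to 0.24, NDUFB8 -0.15 to 0.039, NDUFS1 -0.28 to 0.31, NDUFS3 -0.47 to 0.29, NDUFV1 -0.25 to 0.23, NDUFV2 -0.36 to 0.39, SDHA -0.53 to 0.44, SDHB -0.041 to 0.10, SDHC -0.0051 to 0.073, SDHD -0.032 to 0.027, UQCRB -0.018 to 0.24, UQCRC1 -0.14 to 0.037 and UQCRFS1 -0.24 to 0.26.

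Between numbers, NDUFA9, NDUFS3, NDUFV2, SDHA, UQCRFS1, COX5A, ATP5F1A and ATP5F1C were called in all 15 alternatives, and the following differences turned sign. With equal sums, COX7C was at -0.039, SDHC at -0.021 and UQCRC2 at -0.016. With edgeR, COX7C was at -0.00080. With DESeq2, COX7C was at -0.0024. With protein-coding transcripts only, SDHC was at -0.0017 and UQCRB at 0.064. With the most abundant transcript, SDHC was at -0.013 and UQCRC2 at -0.032. With 1 library left out the differences that turned sign ran as ATP5MC1 -0.31 to 0.0084, COX7C -0.024 to 0.035, NDUFA2 -0.20 to 0.054, NDUFA6 -0.094 to 0.81, SDHC -0.021 to 0.067, SDHD -0.037 to 0.012, UQCRC1 -0.0094 to 0.15 and UQCRC2 -0.019 to 0.075. Depth limits single members little, since the lowest had 455 reads, and 2 libraries a group limit more.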
